A study of Mus musculus with 2 samples.

Results

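Sulfotransferases, UDP-glucuronosyltransferases, carboxylesterases and flavin-containing monooxygenases were examined in mouse fat as 4 families of enzymes that modify drugs, steroids and lipids. Members were all probe sets on the array that are annotated to 1 gene symbol beginning with Sult, Ugt, Ces or Fmo and a number. This gave 57 probe sets for 41 genes, of 34945 probe sets for 18193 genes with such a symbol, and they comprised 13 sulfotransferases, 11 glucuronosyltransferases, 13 carboxylesterases and 4 flavin monooxygenases. The tissue was epididymal white adipose tissue of male C57BL/6 mice, a visceral fat pad next to the epididymis. The chow sample came from feeding with normal chow, and the high-fat diet sample from a high-fat diet for 7 weeks, with diets starting at 9 weeks of age. The number of mice behind each sample and the time on chow are not stated here. The composition of the high-fat diet is not given in the sources used here. Each diet had 1 array and no replicate, so the spread between animals is unknown and no test was made. "Higher" and "lower" below compare these 2 samples only, as high-fat diet minus chow.

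These families act at successive stages of the handling of foreign and endogenous compounds. Carboxylesterases cut ester bonds, including those of triglycerides and cholesteryl esters, and flavin monooxygenases add oxygen to nitrogen and sulfur atoms. Sulfotransferases move a sulfate group from the donor PAPS onto hydroxyl groups of steroids, phenols and catecholamines, and glucuronosyltransferases attach glucuronic acid from UDP-glucuronic acid. Many members are best known from liver, kidney and gut, whereas Ces1d and Ces1f have been linked to lipid breakdown in fat cells, and Sult1e1 inactivates oestrogens.

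Each value is a deposited linear intensity, in arbitrary units, of a probe set, which is a group of short probes for a transcript. Each array's 40th percentile over all probe sets was taken as the lowest signal to be read, and is called the floor here. It was 28.6 for chow and 27.9 for the high-fat diet. A gene with a probe set at or over the floor in either sample counted as measured, and its brightest such probe set stood for it. Values under the floor were raised to it before log2 was taken. Intensities of different probe sets do not rank their transcripts. As a measure of probe error, the pooled SD of probe set differences around the mean of their gene was 0.32 log2 units over 5196 genes. It was 0.37 at mean intensities under 100, 0.29 from 100 to 400 and 0.20 above. This SD holds no spread between animals.

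Of the 41 members 20 were measured, and 15 of these lay above the floor on both arrays. The other 5 lay above it on the chow array only and none on the high-fat diet array only, so those 5 could be lower alone, and their differences are bounds. Over all measured genes 5.42% were above the floor on chow only. The remaining 21 members were below the floor on both arrays, with intensities from 0.4 to 27.4. They were Sult1b1, Sult1c1, Sult2a2, Sult2a8, Sult2b1, Sult3a1, Sult4a1 and Sult6b1, Ugt2a3, Ugt2b5, Ugt2b34, Ugt2b37, Ugt2b38 and Ugt8a, and Ces1c, Ces1e, Ces1g, Ces2a, Ces2b, Ces2e and Ces2f. Values this low have no order and do not show that a gene is silent.

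The largest differences among the measured members were all toward lower values on the high-fat diet. Sult1e1 was the only member past 2-fold, which makes 1 of 20 measured members (5%) beside 1.33% of 14066 measured genes 2-fold or more lower. After centring on reference genes Ces1f and Ugt2b36 also passed 2-fold. None was 2-fold or more higher, against 1.16% of all measured genes. At 1.5-fold, 5 members (25%) were lower, namely Sult1e1, Ugt2b36 and Ces1f above the floor on both arrays and Fmo4 and Ugt3a1 as bounds. Of all measured genes 6.33% were lower by that size. Members measured on chow alone had to be lower, so these counts only describe the members. No member was 1.5-fold or more higher, against 5.74% of all measured genes. Among the 15 members above the floor on both arrays, 4 were lower by more than 2 probe SDs of their intensity level, Sult1e1, Ces1f, Fmo1 and Ugt2b36, or 26.7% beside 4.27% of 12496 genes. None of the 15 was higher by that much, against 4.34% of those genes. Their median difference was -0.30 log2 units with 11 lower and 4 higher, beside a median of -0.02 and 52.9% lower over all genes above the floor on both arrays. With the mean of a gene's probe sets 10 of 15 were lower, with plain probe sets alone 9 of 13, and without a floor 25 of all 41. The 41 include the 21 members below the floor on both arrays. No share of all genes was taken under these settings, so these counts have no comparison.

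**Figure D1:**
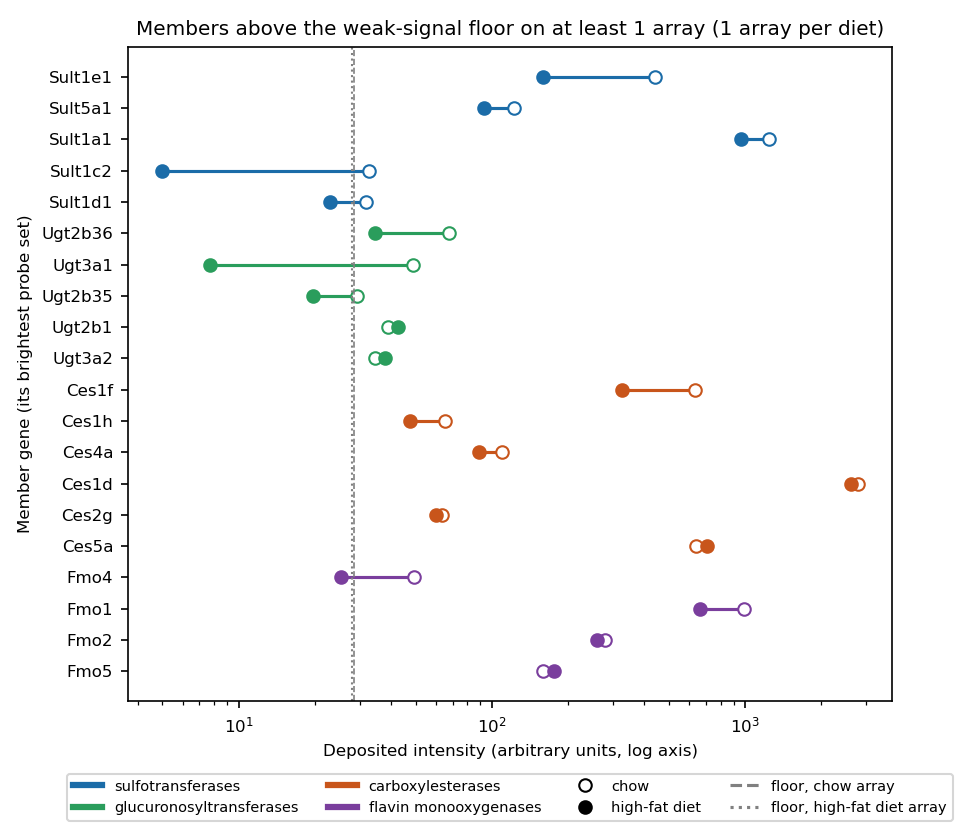
Deposited intensity (arbitrary units, log axis) of the 20 measured members on the chow array (open circles) and the high-fat diet array (filled circles), coloured by family, with each array's floor as a vertical line and 1 array per diet. Sult1e1 lies at 440.6 with chow and 159.6 with high-fat feeding, whereas the circles of Ces1d, at 2776.1 and 2615.9, nearly coincide.

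Of the 5 measured sulfotransferases 3 reached the floor in both samples, and these 3 were lower on the high-fat diet, as were 52.9% of all such genes. The other 2 reached it on chow only and could only be lower. Sult1e1, the oestrogen sulfotransferase, had an intensity of 440.6 with chow and 159.6 with high-fat feeding in its only probe set. The difference of -1.47 log2 units, or 2.76-fold lower, was 5.08 times the probe SD at its level. Sult1a1, the main phenol sulfotransferase, was at 1237.8 with chow and 959.6 with high-fat feeding, 1.29-fold lower, a difference of 1.79 probe SDs. Sult5a1 was at 122.6 with chow and 93 with high-fat feeding, 1.32-fold lower and 1.38 probe SDs from 0. Sult1a1 and Sult5a1 thus lay within 2 probe SDs. Sult1c2 and Sult1d1, at 32.7 and 31.8 on chow, were just above the floor there and under it on the high-fat diet, which allows a bound of at least 1.17-fold and 1.14-fold lower. The 8 others were below the floor on both arrays. They include Sult2a2 and Sult2a8, of a subfamily that sulfates hydroxysteroids and bile acids. Other Sult2a genes had no probe set of their own. Sult4a1, a brain-type member, was at 4 with chow and 27 with high-fat feeding, just under the floor, and its other probe set was at 8 and 6.4.

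Promoter sequence was available in the RefSeq table of build GRCm38.p6 for 16 of the 20 measured members, in 17 windows. The 250 bases before the start site are shown for Sult1e1 and Ugt2b36, the members past 1.5-fold on both arrays that have a window, and for Sult1a1 and Sult5a1, the other sulfotransferases above the floor on both arrays, to set beside Sult1e1. Sequences run 5′ to 3′ on the strand of the gene, and capitals mark matches to the motifs searched. The windows are chr5:87591612-87591861 for Sult1e1, chr7:126676419-126676668 for Sult1a1, chr8:123158281-123158530 for Sult5a1 and chr5:87092556-87092805 for Ugt2b36, all on the minus strand.
Sult1e1: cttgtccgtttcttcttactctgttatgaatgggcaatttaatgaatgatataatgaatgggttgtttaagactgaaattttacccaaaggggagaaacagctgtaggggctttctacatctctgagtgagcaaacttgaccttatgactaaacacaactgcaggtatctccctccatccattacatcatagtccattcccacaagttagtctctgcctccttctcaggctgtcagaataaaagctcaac
Sult1a1: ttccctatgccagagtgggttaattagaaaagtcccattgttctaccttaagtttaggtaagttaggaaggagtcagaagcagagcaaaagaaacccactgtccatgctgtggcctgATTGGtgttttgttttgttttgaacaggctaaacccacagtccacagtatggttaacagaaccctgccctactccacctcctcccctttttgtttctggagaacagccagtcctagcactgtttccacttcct
Sult5a1: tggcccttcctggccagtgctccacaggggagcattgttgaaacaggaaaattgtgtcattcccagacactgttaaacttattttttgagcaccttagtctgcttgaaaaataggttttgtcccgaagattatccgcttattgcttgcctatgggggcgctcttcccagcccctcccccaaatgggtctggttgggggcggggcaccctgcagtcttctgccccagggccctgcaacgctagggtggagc
Ugt2b36: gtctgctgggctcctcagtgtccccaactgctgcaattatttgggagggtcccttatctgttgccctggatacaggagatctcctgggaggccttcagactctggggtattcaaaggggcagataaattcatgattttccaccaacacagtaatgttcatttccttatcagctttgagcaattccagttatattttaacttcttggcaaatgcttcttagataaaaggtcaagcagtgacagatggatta

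The motifs, searched on both strands, were GCGTG, the core site of the Ahr receptor, TGACNNNGC, the antioxidant element bound by Nfe2l2, DR1, the direct repeat bound by several nuclear receptors, the TATA box TATAAA, the E-box CACGTG and the box CCAAT of many promoters. Of the 4 windows shown, only that of Sult1a1 held a match, a CCAAT box on the opposite strand whose first base as printed lies 133 bases before the start site. No member window held TGACNNNGC, DR1 or CACGTG, which occur in 10.16%, 0.03% and 6.02% of all 32851 windows of this length. GCGTG was found in 1 of the 17 member windows, that of Sult1d1, against 28.16% of all windows. TATAAA was found in 3 of 17 (Ces1h, Fmo5 and Ugt3a1) against 12.37%, and CCAAT in 6 of 17 against 33.85%. The first printed bases of the 3 TATAAA matches lay 76, 195 and 8 bases before the start site. Those of Ces1h and Fmo5 were on the opposite strand, and whether any acts as a TATA box was not tested. The Sult1e1 and Ugt2b36 windows contained none of the 6 motifs. A match describes letters only, and its absence from 250 bases says nothing about a factor.

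Among the glucuronosyltransferases with a probe set of their own 5 of 11 were measured, with no intensity above 67.4 on either array. The Ugt1a locus is not among them, since its 3 probe sets each list 8 symbols. These 3 had intensities from 523.6 to 1982 and were all higher on the high-fat diet, by 0.21, 0.24 and 0.44. Ugt2b36, of the subfamily that conjugates steroids and drugs, was at 67.4 with chow and 34.6 with high-fat feeding, 1.95-fold lower and 2.57 probe SDs from 0. With the floor at the 60th percentile this became a bound of -0.20 log2 units. Ugt3a1, of a subfamily that uses sugars other than glucuronic acid, was at 48.8 with chow and 7.7 with high-fat feeding, at least 1.75-fold lower. The suffix of this probe set marks probes shared by several transcripts. The other probe set of Ugt3a1 was under the floor on both arrays, at 6.4 and 17.9. Ugt2b35 lay at 29.4 with chow and 19.7 with high-fat feeding, at least 1.05-fold lower. In contrast, Ugt2b1 was at 38.8 and 42.4 and Ugt3a2 at 34.4 and 37.8, differences of 0.13 and 0.14 that were under 0.4 probe SDs. Ugt8a, which makes the galactosylceramide of myelin, was at 2.5 and 20.3 in a probe set and at 9 and 8.4 in the other, all under the floor.

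The carboxylesterases were divided between Ces1d, with close intensities on both diets, and Ces1f, its relative from the same gene cluster, which was lower. Ces1d, known as triacylglycerol hydrolase, had intensities of 2776.1 with chow and 2615.9 with high-fat feeding, a difference of -0.09. Its other probe sets were at 1433 and 1588.8 and at 290.4 and 332.4, differences of 0.15 and 0.19 in the opposite direction. All 3 lay within 1 probe SD of 0. Ces1f, also a lipid hydrolase, was at 630.7 with chow and 325 with high-fat feeding. This is 1.94-fold lower, 4.67 times the probe SD, in its only probe set. Its suffix marks probes shared by several transcripts, and near-identical Ces1 paralogs could share signal in it.

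No other carboxylesterase passed 1.5-fold in the probe set that stood for it. Ces1h was at 65.3 with chow and 47.4 with high-fat feeding, 1.38-fold lower and 1.23 probe SDs from 0. Ces4a was at 109.3 and 89, 1.23-fold lower, and Ces2g at 63.4 and 60.1, 1.05-fold lower, both under 1 probe SD. Ces5a, a secreted esterase known from epididymis and kidney, could not be given a direction. Its brightest probe set was at 637.1 with chow and 706 with high-fat feeding, but another was at 67.5 and 36.9, a difference of -0.87, and the third at 33.2 and 33.5. Both of the brighter probe sets carry the suffix for probes that may cross-hybridise, and the mean difference of all 3 was -0.24. Of the other epididymis markers with a probe set, Lcn8 was at 55.1 with chow and 32.9 with high-fat feeding, Defb42 at 44 and 43.7 and Adam7 at 13.9 and 38.4. The other 6, among them Lcn5 and Crisp4, were below the floor on both arrays, and the part of epididymal tissue in the Ces5a signal was not tested.

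All 4 flavin monooxygenases were measured. Fmo1 was at 987.7 with chow and 665 with high-fat feeding in its only probe set, 1.49-fold lower and 2.79 probe SDs from 0. Fmo4 was at 49.1 with chow and under the floor at 25.4 with high-fat feeding, at least 1.76-fold lower. Fmo2, the lung form, had 5 measured probe sets. The brightest was at 279.9 with chow and 260.7 with high-fat feeding, and the 4 that reached the floor in both samples differed by -0.10, -0.03, 0.12 and 0.32. The fifth, at 31.8 with chow and 15.5 with high-fat feeding, gave a bound of -0.19. Fmo2 therefore had no common direction. Fmo5, which oxidises carbonyl compounds, was at 158.8 with chow and 176.5 with high-fat feeding, and its 3 probe sets were all higher, by 0.15, 0.16 and 0.29, each within about 1 probe SD.

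**Figure D2:**
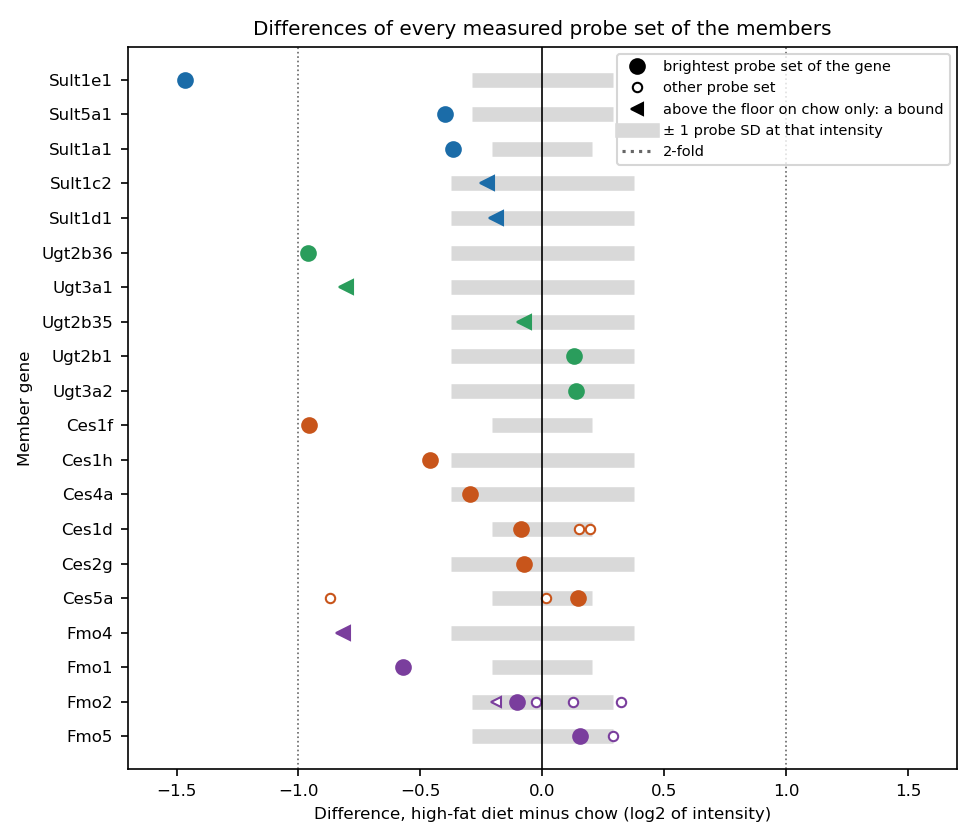
Difference between the arrays (high-fat diet minus chow, log2 of intensity) of every measured probe set of the 20 members, with the brightest probe set of a gene filled, triangles for bounds, grey bars for ± 1 probe SD at the intensity of the brightest probe set and dotted lines at 2-fold. Sult1e1 (-1.47) lies beyond 2-fold, Ugt2b36 (-0.96) and Ces1f (-0.96) just inside it, and the probe sets of Ces5a spread from -0.87 to 0.15.

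Several members lie next to each other in the genome, by the gene order of the RefSeq table. The size of the difference varied between some of these neighbours. On chromosome 1, Fmo4, Fmo1 and Fmo2 follow each other and differed by at least -0.82, by -0.57 and by -0.10. On chromosome 8, Ces1e, which was below the floor, lies between Ces1d (-0.09) and Ces1f (-0.96). On chromosome 5, Sult1d1 is the neighbour of Sult1e1 at -1.47. Sult1d1 was just above the floor on chow, so its bound could not pass -0.19. Whether its difference was smaller than that of Sult1e1 cannot be read from this pair. On chromosome 15, Ugt3a1 was at least -0.81 and its neighbour Ugt3a2 differed by 0.14. The Ugt3a1 probe set, like that of Ces1f, carries the suffix for probes shared by several transcripts. Whether neighbours differ less than other genes was not tested.

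**Figure D3:**
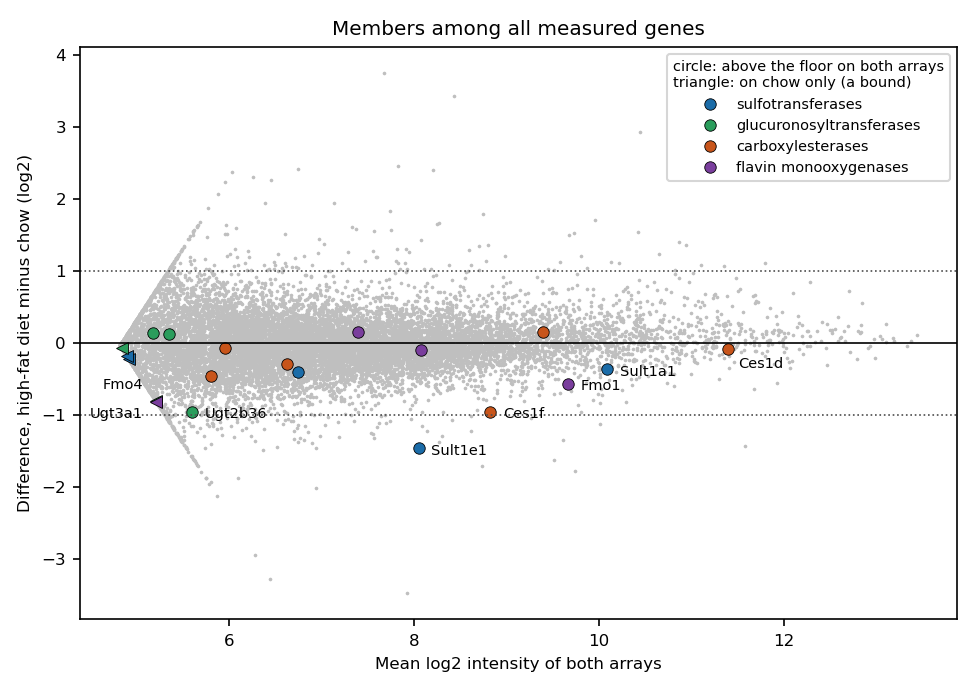
Difference between the arrays (high-fat diet minus chow, log2) against the mean log2 intensity of both arrays for all 14066 measured genes (grey) and the 20 measured members (coloured by family, triangles for bounds). Fmo5 lies highest of the members at 0.15, and Sult1e1 lies lowest at -1.47.

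Genes listed for donor supply and conjugate removal were mostly within 1.5-fold. In the sulfate donor list 10 of 11 genes were measured, 8 higher and 2 lower, with a median difference of 0.11. Papss1, which makes PAPS, was at 349.7 with chow and 379.7 with high-fat feeding, and Papss2 at 573.1 and 488.9. The list had 2 genes past 1.5-fold, both higher. The sulfate transporter Slc13a4 went from 81.7 to 122.8, a difference of 0.59, and Bpnt2, a phosphatase of the spent donor, was 1.55-fold higher, although both of its other probe sets differed by only 0.13. In the list of sulfatases, which remove sulfate, 8 of 12 were higher with a median of 0.14 and none was past 1.5-fold. The 8 include Sumf1 and Sumf2, which activate sulfatases and are none themselves, and Sumf1, at 0.54, differed most. In the list of glucuronic acid supply and removal 5 of 9 were higher, the median was 0.04 and none was past 1.5-fold. The 5 include Hexa and Ugcg, which do not act on glucuronic acid. Ugdh, a gene of that list which makes UDP-glucuronic acid, was at 456.6 with chow and 469.2 with high-fat feeding.

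Transporters of conjugates went both ways, with a median difference of -0.11 and 8 of 12 lower. Of these 12, 1 was above the floor on chow only and could only be lower. Among the 11 above it on both arrays 7 were lower, with a median of -0.12, beside 52.9% of all such genes. Abcc3, an exporter of glucuronides, was 1.93-fold higher, from 82 to 157.9, and Slco2b1, an importer of steroid sulfates, was 1.58-fold lower, although 1 of its 3 probe sets differed by 0.59. Other lipid and ester hydrolases had a median of 0.13 with 18 of 23 higher. Within them Pon1, a serum esterase made mainly by liver, was 2.48-fold lower, Abhd5, the coactivator of fat cell lipolysis, 1.54-fold lower, and Pon2 1.53-fold higher. Flavin and haem oxidation partners had a median of 0.07, or 0.11 without the 1 gene above the floor on chow only. Within them Maob, a monoamine oxidase with a flavin cofactor, was 1.65-fold lower. Receptors that sense xenobiotics and steroids had a median of -0.19 with 13 of 18 lower. Of these 18, 2 were above the floor on chow only and could only be lower. Among the 16 above it on both arrays 11 were lower, with a median of -0.16, beside 52.9% of all such genes. Esr1, the oestrogen receptor, was 1.60-fold lower, from 518.3 to 324, while its weaker probe sets differed by -0.27 and 0.14. Rxrg was at least 2.30-fold and Nr0b2 at least 1.82-fold lower, and Nr1i3, the CAR receptor of liver, was below the floor on both arrays. Of other conjugating enzymes 9 of 14 were lower with a median of -0.08. These 14 include 1 above the floor on chow only, which could only be lower, and 3 on the high-fat diet only, which could only be higher. Among the 10 above it on both arrays 8 were lower, with a median of -0.09, beside 52.9% of all such genes. In that list Inmt, a methyltransferase, was 1.64-fold lower and Acsm3, an acyl-CoA synthetase, at least 4.38-fold lower.

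**Figure D4:**
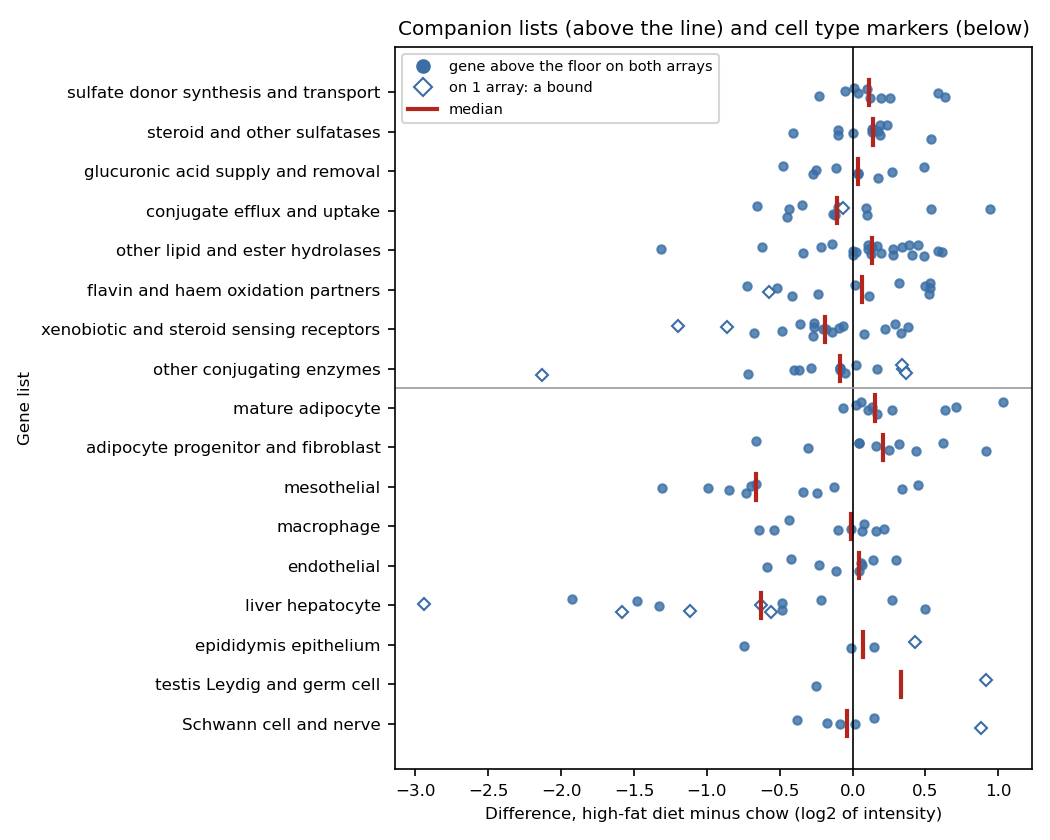
Difference between the arrays (high-fat diet minus chow, log2) of each measured gene in 8 companion lists and 9 lists of cell type markers, with diamonds for genes above the floor on 1 array and red bars for list medians; vertical scatter is only for display. The medians of the mesothelial (-0.66) and liver (-0.63) lists are the lowest, and those of the companion lists lie between -0.19 and 0.14. The liver median includes 5 genes above the floor on chow only, and is -0.48 for those above it on both arrays.

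Markers of fat cells were bright on both arrays and mostly higher on the high-fat diet. Most measured markers of liver and of the mesothelial lining were lower there, as Sult1e1, Ces1f, Fmo1 and Ugt2b36 were. All 10 measured fat cell markers were above the floor on both arrays, with a summed intensity of 55166.1 with chow and 60236.5 with high-fat feeding. Of these 10, 9 were higher, with a median difference of 0.15. The brightest differed little, with Adipoq at 8372.1 and 8718.4, while Lep, the hormone leptin, was 1.55-fold higher, Pck1 1.64-fold and the glycerol channel Aqp7 2.05-fold (0.59 log2 units in its other probe set). The weakest of the 3 probe sets of Pck1 was lower, at 32.1 and 7.4. Of the liver markers 13 of 16 with a probe set were measured, 11 of them lower. Of these 13, 5 lay above the floor on chow only and could only be lower. Among the 8 above it on both arrays 6 were lower, with a median of -0.48. The 13 summed to 1215.5 with chow and 523.9 with high-fat feeding. This ratio of 0.43 includes those 5, among them Apoa2 at 214.2 and 13.1. Alb, the albumin of liver, was at 141.5 with chow and 121.5 with high-fat feeding, and Fgb and Fgg were below the floor on both arrays. All 11 mesothelial markers were measured, 9 of them lower, and their summed intensity was 1994.4 and 1451.2, a ratio of 0.73. In the progenitor and fibroblast list 8 of 10 were higher, with a median of 0.21 and a sum of 11442.1 and 12039.7. The matrix genes Mfap5 and Dpt were 1.89-fold and 1.54-fold higher, whereas Dcn, the brightest value in that sum, was at 6312 and 5096.7. Pdgfra was 1.58-fold lower, but 0.19 higher in its other probe set. The macrophage list, with 5 of 9 lower, summed to 6810.7 and 6787.6, and the endothelial list, with 4 of 9 lower, to 2704.5 and 2646.9. The Schwann cell list summed to 1857.5 and 1552.7, and of 8 testis markers with a probe set only Star, at 130.3 and 109.5, and Prm2, at 24.4 and 54, were measured. In a whole fat pad, fewer cells of a type and less RNA per cell cannot be told apart. The part of these cell types in the members' differences was not tested.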

How the data were processed

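Total RNA extracted with Trizol was labelled from 10 µg as biotinylated cRNA and hybridised to Affymetrix mouse arrays, per the labels' protocols. The authors deposited linear intensities for 45037 probe sets on each array. How these were summarised and scaled is not given in the sources used here. Means after trimming 2% at each end were 99.6 on both arrays, and medians of log2 intensity were 5.38 for chow and 5.35 for the high-fat diet. This gap is under the limit of 0.1 set for centring, so intensities were used as deposited. A scaling to 1 target would hide a difference in total RNA. Probe sets were named from platform annotation of 2016, and 34741 of 34945 with 1 symbol matched the RefSeq table by gene ID, with 0 symbols changed.

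Of 45037 probe sets, 60.1% and 60.0% lay at or above the floors. Genes were represented by the measured probe set with the highest mean log2 intensity. Named members were those differing by 0.5 log2 or more, the 3 brightest of each family, bounds and genes below the floor, and companion genes past 1.5-fold, at most 3 a list. The other members, and the companion and marker genes outside this rule (Papss1, Papss2, Ugdh, Nr1i3 and the markers), were chosen after their values were seen. Members and lists were chosen with earlier results of these data known. Alternatives changed the floor, the probe set, the scaling and the size threshold. Calculations used Python 3.11.15, pandas 2.3.3 and statsmodels 0.14.6 and were tested on simulated data. With 1 array per diet, the number of arrays sets the precision.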

Additional observations from a re-analysis of the deposited data

How the results depend on the processing

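Sult1e1, Ces1f and Fmo1 were lower under every alternative that gave a value, with Sult1e1 between -1.54 and -1.38 log2 units and Ces1f between -1.04 and -0.92. Members above the floor on chow alone can only be lower, so their sign is no sign of stability. This holds for Fmo4 and Ugt3a1 and, at the 60th percentile floor, for Ugt2b36. Ugt3a1 moved in 2 of 8 alternatives, to -2.33 with the 20th percentile floor and -1.45 without a floor. Of 14 members recomputed in 133 combinations, 129 moved by less than the probe SD and 130 kept their sign, the exceptions being 1 each for Ces1d, Ces5a and Fmo2. Members 2-fold or more lower numbered 1 in the main setting. They numbered 3 after centring on reference genes, which shifted the median of all genes to -0.10 and added Ces1f and Ugt2b36. With the floor at the 20th percentile they numbered 4 of 30 measured members, beside 713 of 16624 genes. With no floor and an offset of 16 they numbered 4 of 41, beside 261 of 18193 genes. Both times these were Sult1e1 with Ces1c, Sult1c2 and Ugt3a1, the last 3 with high-fat diet intensities of 3.5, 5 and 7.7. At a size threshold of 1.5-fold 5 members were lower. Members 2-fold or more higher numbered 0 in the main setting, 2 with the 20th percentile floor (Sult4a1 and Ugt8a) and 1 without a floor (Sult4a1), all from intensities of 27 or less. The median difference of all measured members, -0.26 in the main setting, was -0.38 with the 20th percentile floor and -0.085 without a floor, when all 41 genes entered. That of the sulfotransferases moved from -0.37 to -0.032 without a floor. That of the glucuronosyltransferases moved from -0.076 to -0.43 with the 20th percentile floor, and that of the flavin monooxygenases from -0.34 to -0.10 with the 60th percentile floor. In the main setting these medians include members above the floor on chow alone, which could only be lower. For members above it on both arrays, 3 in each of these families, the median was 0.13 for glucuronosyltransferases. It was -0.10 for flavin monooxygenases and -0.40 for sulfotransferases. Moving the floor changes which members count as measured, and the offset also shrinks differences of low intensities; which of these moved the values without a floor was not tested. Centring on reference genes also gave 255 lower and 117 higher genes over the whole array, against 187 and 163. The 20th percentile floor gave 713 and 598 of 16624 genes, the 60th 65 and 88 of 10723, and no floor 261 and 239 of 18193. The probe error SD was 0.32 in the main setting, and plain probe sets moved it by less than 1.5 times. No paired analysis was possible because each diet has 1 array, and no replicate could be left out.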

Other observations

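At the Ugt1a locus alternative first exons are joined to shared last exons, and its 3 probe sets cannot be assigned to 1 gene. Their intensities were 1673.7 with chow and 1982 with high-fat feeding, 853.4 and 1161.2, and 523.6 and 607.2, differences of 0.24, 0.44 and 0.21 log2 units and thus 1.18-fold, 1.36-fold and 1.16-fold higher. Read beside Ugt2b36, which was lower, the locus differed in the other direction, and with 1 array per diet this contrast was not tested. The 2 other probe sets that list several symbols of these families, 1 of the Ces3 pair and 1 of the Ugt2a pair, were below the floor on both arrays.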
